A study of Mus musculus with 8 samples.

Results

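The genes for eukaryotic translation initiation factors were taken as all protein-coding genes of the mouse GENCODE M21 annotation (build mm10) whose symbol is Eif followed by a digit. They numbered 55 of 21951 protein-coding genes, and are called the Eif genes here. The data were peaks from crosslinking and immunoprecipitation with sequencing (CLIP-seq), which maps the RNA stretches that a protein contacts in cells. A peak belonged to an Eif gene if its midpoint lay within the gene on the same strand. In the Flag-MBD5 libraries 85 of 5362 and 84 of 5388 peaks did so, and in the Flag-MBD6 libraries 107 of 9218 and 106 of 9587.

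All libraries came from wild-type mouse embryonic stem (mES) cells that stably overexpressed the human coding sequence of MBD5 or MBD6 with a 3×Flag tag under hygromycin selection, so none came from cells without a transgene. The series has 4 groups of 2 samples, a CLIP group and an input group for each protein, and the 4 CLIP libraries were analysed here. Sources differ on the antibody, which is against Flag in the sample characteristics and the study's methods but against MBD6 in the extraction protocol. RNA was cut with RNase T1, which cleaves after G. As a check of the labelled cells, 10 of 12 stem cell marker genes had a peak in some library, and none of 8 feeder fibroblast marker genes did.

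MBD5 and MBD6 belong to a family named for the methyl-CpG-binding domain, and the study asked which RNAs both proteins contact. Initiation of translation brings the small ribosomal subunit, the initiator tRNA and the mRNA together. The eIF2 complex carries the initiator tRNA and is recharged by eIF2B, the large eIF3 complex binds the small subunit, and eIF4E, eIF4G and eIF4A form the complex that binds the cap and unwinds the mRNA. The kinases of the Eif2ak genes phosphorylate eIF2 under stress and thereby lower initiation. The factor eIF5 triggers GTP hydrolysis by eIF2, and the GTPase eIF5B joins the large subunit.

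Sequences that opened some of the sites are printed below. Lower-case letters are the 6 transcript bases before the 5′ end of the peak and capitals are the first 24 bases inside it, with the interval of the site on mm10. A site is a stretch with a peak in all 4 libraries. Fold enrichment is the height of a peak over its background in the peak calling, with the same small count added to both. Folds of libraries of unlike depth are therefore not on a common scale. Whether that background came from the inputs is not given in the sources used here. The sites shown are, by fold enrichment, the best of Eif3a, Eif3c, Eif5b, Eif2s2, Eif4g1 and Eif4g2 and the next best of Eif3a. Further ones are an Eif3c site with a long purine run, the Eif3d site with the lowest ratio of the proteins in summit reads, and an Eif3b site with few A. The best sites of Eif4a2, Eif4b and Eif3d, which follow C, are not shown.
Eif3a coding exon 17 (chr19:60768611-60768902, minus strand): tcaaagAGCGAGAAGAAAGAGAACGTGCTG
Eif3a coding exon 20 (chr19:60763916-60764219, minus strand): agagagAAAGAAAAGGCTAGAGAAGAGAGT
Eif3c coding exon 8 (chr7:126558776-126559010, minus strand): aaaaggCACCCACTACAGAGGAGGACAAAA
Eif3c coding exon 4 (chr7:126563537-126563752, minus strand): gctttgGGAAGATAAAGAAGGAAAGAAGAA
Eif5b coding exon 10 (chr1:38036004-38036381, plus strand): aatatgATTCACATAGAAGTAGAAGAAAAC
Eif2s2 coding exon 2 (chr2:154888057-154888350, minus strand): tttttgATCCTACTATGAGCAAAAAGAAAA
Eif4g1 coding exon 16 (chr16:20682724-20682929, plus strand): tcggtgCCAGAAGGAATTTGAGAAAGACAA
Eif4g2 coding exon 3 (chr7:111080085-111080279, minus strand): aaatggATTCCTGCACGAAGCACTAGACGA
Eif3d coding exon 7 (chr15:77963939-77964138, minus strand): ctggagTACTACGACAAAGCCTTTGACCGC
Eif3b coding exon 12 (chr5:140437348-140437529, plus strand): gtgaggCCCCTCGGATCTCTGTCTCCTTCT

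In the printed sequences the base before the capitals is G, which follows from the choice of sites. Runs of A and G fill much of the capitals at several of these picked sites. The longest purine run in the first 30 bases was 3 at the Eif3b site and 4 at the Eif3d and Eif4g2 sites. Over all 56 Eif sites found in all 4 libraries whose 5′ end lay in an exon of the gene's main transcript, 45 had G, 9 had C and 2 had A just before the 5′ end. G at this position is the base after which RNase T1 cuts, and its share was 80.4% in Eif sites and 81.1% in the 2720 such sites of all genes. In the first 30 bases, A made up 39.4% in Eif sites against 29.4% over the coding sequences of the same transcripts, and 38.6% against 28.7% for all sites. The share of A was above that of the gene's own coding sequence in 48 of the 56 windows. Codons for lysine and glutamate made up 29.9% of 501 whole codons in the windows and 17.4% in the coding sequences, and 29.2% against 16.1% for all sites. The composition of the Eif sites thus lay near that of the sites of all genes, and no test of a difference was made.

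**Figure D1:**
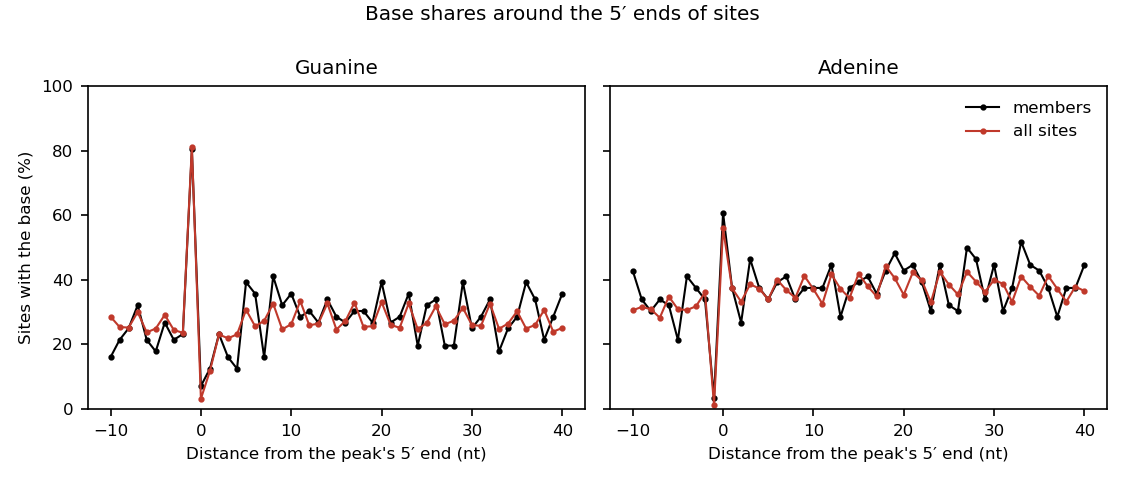
Share of sites with guanine (left) and adenine (right) at each distance from the peak's 5′ end in nt, where 0 is the first base of the peak, for 56 Eif sites (black) and 2720 sites of all genes (red). Guanine stands at 80.4% and 81.1% just before the 5′ end, and the lines for Eif genes vary around those of all genes.

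Depth set how the libraries could be compared. Summit reads are the reads over the highest point of a peak, solved from its deposited fold enrichment and p-value. The number of reads behind each library, estimated from the peak lists, was 478796 and 500149 with Flag-MBD5 and 983928 and 1111748 with Flag-MBD6, a depth 2.14 times as great. At the 62 Eif sites with a peak in all 4 libraries, the summit reads of the replicates differed by less than sampling noise, with a chi-square per degree of freedom of 0.533 with Flag-MBD5 and 0.473 with Flag-MBD6, where independent sampling gives 1. The 2 libraries of a protein were therefore counted as 1 sample, each value is given per library without an error, and no test between the proteins was made. Intervals below cover counting error only. The height of a peak mixes the amount of the RNA in the cells with the share of it that was bound, and these cannot be told apart from peak lists.

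Peaks of both proteins fell in many of the Eif genes. A region counted as reproducible when both libraries of the protein had an overlapping peak there. MBD5 regions lay in 22 of the 55 Eif genes (40%), against 7.8% of all protein-coding genes, and MBD6 regions in 31 (56.4%), against 13.8%. All 22 genes with an MBD5 region also had an MBD6 region, and 9 had MBD6 regions alone. Over all protein-coding genes 1713 had an MBD5 region and 3029 an MBD6 region. Among the 21866 with a known coding length, 3080 had a region of either protein. Most genes with an MBD5 region thus also had an MBD6 region over all genes. These genes held 71 MBD5 and 91 MBD6 regions. With equal numbers of peaks from each library there were 71 MBD5 and 68 MBD6 regions, in 22 and 24 genes. A further 6 genes had a peak but no reproducible region (Eif1ad, Eif2b3, Eif2b4, Eif3f, Eif4h and Eif5a), and 18 had no peak in any library. The Eif genes with a region had a median coding length of 1644 nt and those without a median of 708 nt. Over all protein-coding genes the median was 1158 nt, and 1880 nt in those with a region.

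**Figure D2:**
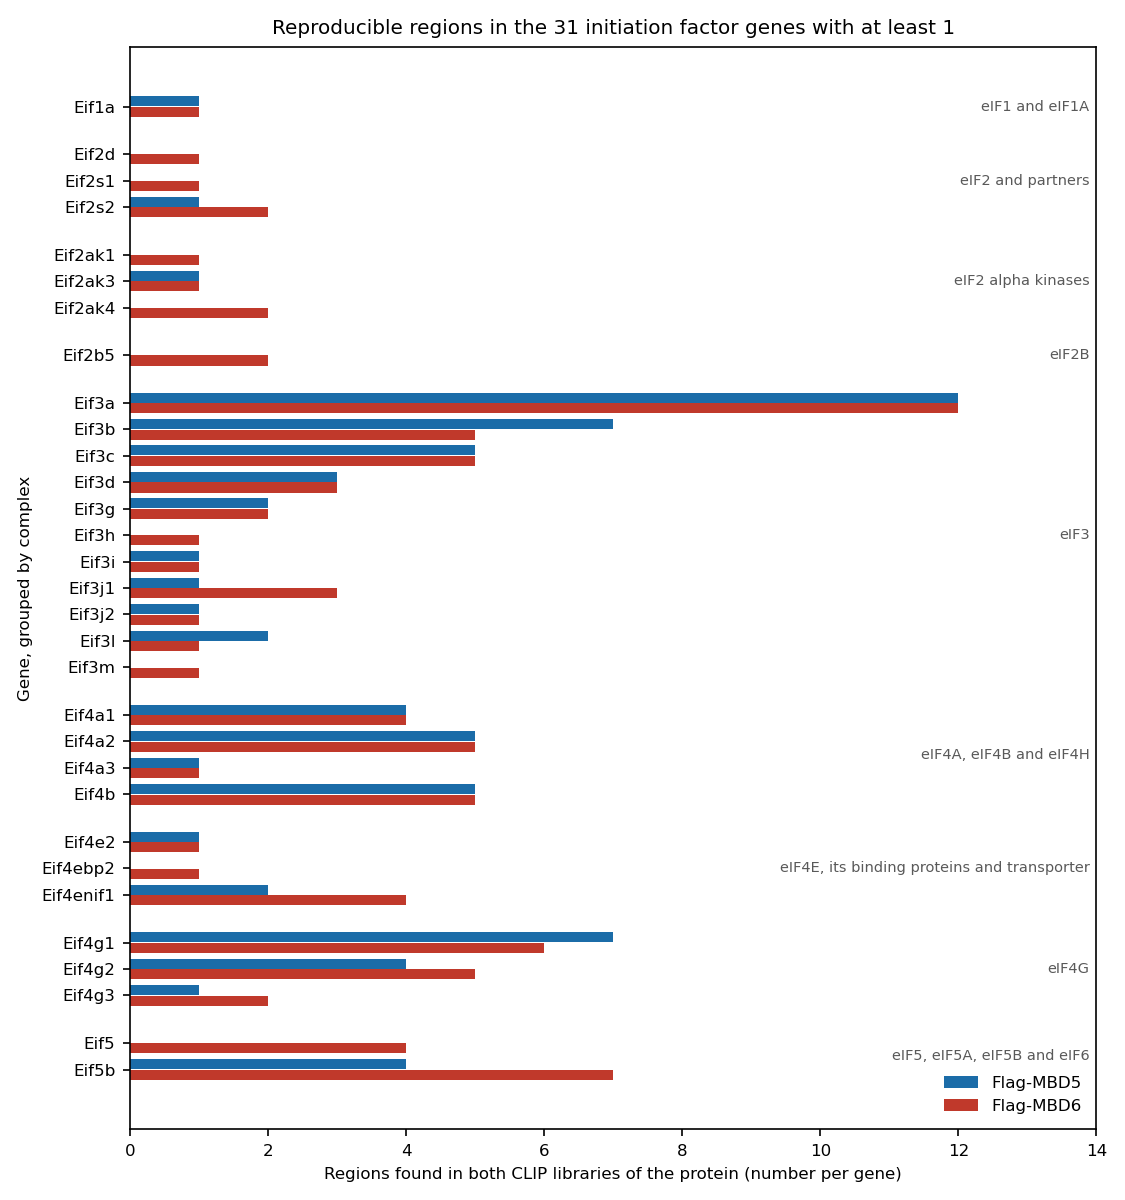
Number of regions found in both libraries of Flag-MBD5 (blue) and Flag-MBD6 (red) in each of the 31 Eif genes with at least 1 region, grouped by complex. Eif3a leads with 12 regions for each protein, and 9 genes have a red bar alone.

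Other genes of translation were covered too. Among 29 further initiation genes, which hold poly(A)-binding proteins, kinases of initiation factors and similar regulators, 10 (34.5%) had an MBD5 region and 13 (44.8%) an MBD6 region. Gigyf2, a partner of the cap-binding protein 4EHP, had the most, with 4 MBD5 and 11 MBD6 regions. Among 83 cytoplasmic ribosomal protein genes the counts were 53 (63.9%) and 57 (68.7%), although their median coding length was 456 nt, and among 13 genes with the elongation factor prefix Eef they were 4 and 5. That list includes a kinase and methyltransferases of these factors. All genes of it with a region were among the 6 for Eef1a1, Eef1a2, Eef1b2, Eef1d, Eef1g and Eef2, a subset set apart after its values were seen, of which 4 had an MBD5 and 5 an MBD6 region.

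Over all protein-coding genes 19.4% had a peak in some library, 7.8% an MBD5 region and 13.8% an MBD6 region. The counts of each group below can be read against the share of the same measure. Of the 5 genes for eIF1 and eIF1A, which help the small subunit find the start codon, 2 had a peak, and Eif1, Eif1b and Eif1ax had none. Eif1a, with a single coding exon, had 1 site in all 4 libraries, with a fold enrichment of 11.5 and 9.15 with Flag-MBD5 and 15.5 and 15.4 with Flag-MBD6. The coding sequences of this group were short, between 339 and 510 nt.

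Of the 6 genes for eIF2 and its partners, 1 had an MBD5 region and 3 an MBD6 region. Eif2s2 codes for the beta subunit of eIF2 and held the best site of the group. The site had 121 and 107 summit reads with Flag-MBD5 and 164 and 174 with Flag-MBD6, with folds of 47.4 and 58.7, and 67.0 and 29.7. These were among the highest read counts of any Eif site. The opening 30 bases of this site occur without a mismatch in the processed pseudogene Gm9892, which itself had a peak in every library, with 144 and 154 summit reads with Flag-MBD5 and 204 and 224 with Flag-MBD6. Reads with up to 10 places were kept and put at 1 of them, so the reads of Eif2s2 and Gm9892 cannot be told apart. Eif2s1, for the alpha subunit, and Eif2d, for a factor that can deliver tRNA without eIF2, each had 1 MBD6 region and no MBD5 region. Eif2a and both genes of the gamma subunit, Eif2s3x and Eif2s3y, had no peak.

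Of the 4 eIF2 kinase genes, 1 had an MBD5 region and 3 an MBD6 region. Eif2ak4, for the kinase GCN2 that senses lack of amino acids, had 2 MBD6 regions and no Flag-MBD5 peak. Eif2ak3, for the kinase PERK of the endoplasmic reticulum, had 1 region of each protein, at different places. Eif2ak1, for the haem-regulated kinase, had 1 MBD6 region, and Eif2ak2, for the kinase PKR that responds to double-stranded RNA, had no peak. Of the 5 eIF2B genes, Eif2b5, for the catalytic subunit, had 2 MBD6 regions and no MBD5 region. At its site with peaks in all 4 libraries, the 2 Flag-MBD5 peaks did not overlap each other. Summit reads there were 11 and 12 with Flag-MBD5 and 22 and 23 with Flag-MBD6.

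The eIF3 complex had the most regions of any group, with 34 for MBD5 and 35 for MBD6. MBD5 regions lay in 9 of its 14 genes and MBD6 regions in 11, and 30 of the 62 Eif sites in all 4 libraries were in eIF3 genes. Eif3a codes for the largest subunit, a scaffold of the complex. Its 12 regions of each protein put it at rank 16 of all 21951 genes by MBD5 regions and at rank 27 by MBD6 regions, shared with genes that had as many.

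All 11 Eif3a sites found in every library lay in the last 11 of its 22 coding exons. Each of coding exons 12 to 22 held 1 site, and each of these exons overlapped exactly 1 peak in each of the 4 libraries. Coding exons 1 to 11 held no site in all 4, and 3 of them overlapped a peak of some library. Exons 12 to 22 made up 2403 of 4032 coding nt, with 35.3% A and 67.8% purines. Exons 1 to 11 made up 1629 nt with 30.1% A and 51.9% purines. By single exon the shares of A overlapped, from 26.6% to 44.8% in exons 12 to 22 and from 19.7% to 40.1% in exons 1 to 11. Exon 3, at 40.1%, overlapped no peak, and exon 19, at 26.6%, held a site. Reads were aligned to the genome without splicing, which breaks a stretch of bound mRNA at every intron, so the number of sites does not count separate contacts.

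By the mean rank of fold enrichment over the 4 libraries, the first Eif3a sites were those in coding exons 17 and 20, whose purine-rich openings are printed above. The exon 17 site ranked 8 of the 3566 sites of all genes, with folds of 64.6 and 66.4 with Flag-MBD5 and 89.9 and 92.3 with Flag-MBD6. Its summit reads were 80 and 83, and 136 and 146. The site with the most reads, and with the highest fold of the Eif3a sites in 3 of the 4 libraries, was in exon 12, with 144 and 140 reads with Flag-MBD5 and 214 and 246 with Flag-MBD6. In reads per 1000000 estimated reads this was 301 and 280 against 217 and 221, so that the scaled values of the proteins did not overlap. Its folds, which are not scaled to depth, had the opposite order, at most 81.2 with Flag-MBD5 and 102 and 118 with Flag-MBD6. The lowest of the 11 sites, in exons 15 and 18, had between 15 and 18 reads with Flag-MBD5 and between 23 and 35 with Flag-MBD6. Eif3a sites filled 3 of the 20 best ranks of all genes and 5 of the 50 best.

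**Figure D3:**
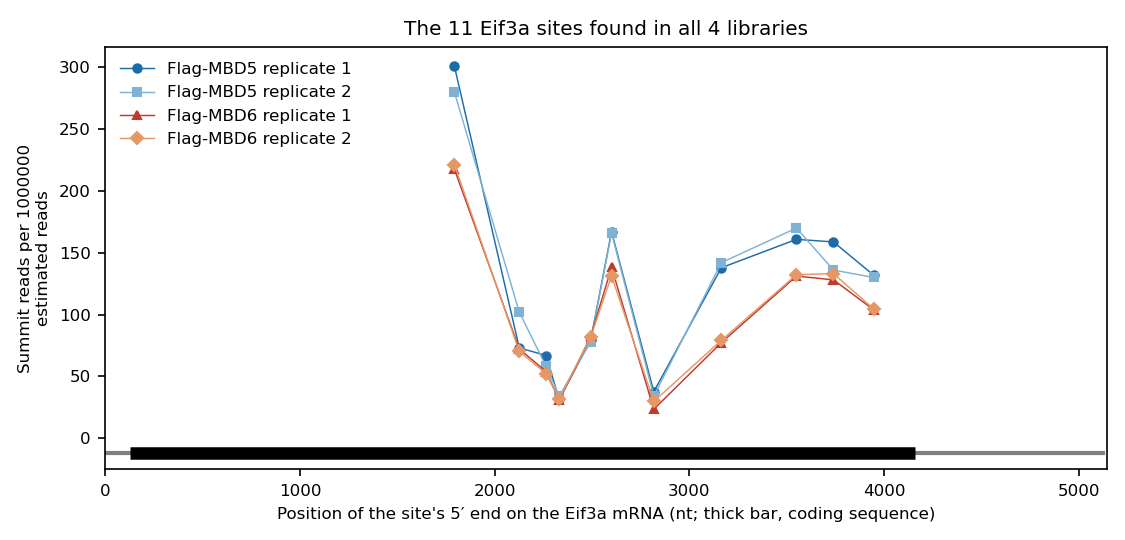
Summit reads per 1000000 estimated reads (vertical) at the 11 Eif3a sites in all 4 libraries against the position of each site's 5′ end on the Eif3a mRNA in nt (horizontal), with the coding sequence as a thick bar. Lines join the values of 1 library, and the 4 libraries rise and fall together, from a top of 301 in exon 12 to values under 40 in exons 15 and 18.

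The remaining Eif3a regions were weak and differed between the proteins. The twelfth MBD5 region lay in an intron over the small RNA gene Snora19, with 7 and 6 summit reads, and the second Flag-MBD6 library also had a peak there with 10 reads. The twelfth MBD6 region, chr19:60782133-60782297, lay near the start of the coding sequence with 7 and 14 reads, and no Flag-MBD5 library had a peak there.

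Other large eIF3 subunits followed. Eif3c codes for a core subunit that contacts eIF1 and eIF5, and had 5 regions of each protein. Its best site ranked 36, with folds of 45.5 and 54.5 with Flag-MBD5 and 60.9 and 63.4 with Flag-MBD6. The exon 4 site, whose opening 30 bases hold a purine run of 19 that goes on past the printed bases, had folds of 33.3 and 26.1, and 26.8 and 26.6. In Eif3b, for a subunit with an RNA recognition motif, 7 MBD5 regions stood against 5 MBD6 regions, and its best site had 30 and 38 summit reads against 42 and 41. Eif3l, for a further subunit, had 2 MBD5 regions against 1 MBD6 region, with 24 and 18 reads against 35 and 44 at its best site. Eif3b, Eif3l and Eif4g1 were the 3 Eif genes with more MBD5 than MBD6 regions, whereas 15 had more MBD6 regions and 13 as many of each. This balance moved with the number of peaks per library. With equal numbers of peaks 10 genes had more MBD5 regions, 6 more MBD6 regions and 10 as many of each.

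Smaller eIF3 subunits had between 1 and 3 sites in all 4 libraries or none. The best Eif3g site had 18 and 20 summit reads with Flag-MBD5 and 41 and 44 with Flag-MBD6, that of Eif3i had 24 and 18 against 38 and 31, and that of Eif3d, for the subunit that can bind the cap, had 28 and 15 against 21 and 31. In Eif3d the unscaled reads of the proteins overlapped. Eif3h and Eif3m had MBD6 regions alone, Eif3f had a peak in the first Flag-MBD5 library, and Eif3e and Eif3k had no peak.

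Eif3j1 and Eif3j2 code for near-identical copies of the loosely bound subunit eIF3j. Eif3j2 had 21 and 31 summit reads with Flag-MBD5 and 80 and 82 with Flag-MBD6, and Eif3j1 had 14 and 12 against 28 and 33. The opening 30 bases of each site occur in the other gene as well, so how the reads split between the copies is uncertain.

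Regions in the helicase genes of the eIF4A group lay largely over small RNAs. Eif4a1 and Eif4a2 code for the helicase of the cap complex, and their introns host small nucleolar RNAs. All 3 sites of each gene found in all 4 libraries overlapped an annotated small RNA gene, among them Snord2 and Snora81 in Eif4a2. The best Eif4a2 site had 104 summit reads with each Flag-MBD5 library and 168 and 180 with Flag-MBD6, and also opened with bases found in the processed pseudogene Gm2999. Whether these reads came from the mRNA, from the small RNA or from the pseudogene was not tested. Over all Eif genes, 11 of 71 MBD5 regions and 9 of 91 MBD6 regions overlapped a small RNA gene. Without them 21 and 31 genes still had a region. Counted by peaks, 147 of 169 Flag-MBD5 and 193 of 213 Flag-MBD6 peaks in Eif genes were clear of small RNA genes. Over all protein-coding genes 8918 of 9298 and 16134 of 16572 were, so the Eif genes held a larger share of such overlaps.

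The eIF4B and eIF4A3 genes had no such overlap. Eif4b, for a protein that stimulates the helicase, had 5 regions of each protein, and its best site had 43 and 34 summit reads with Flag-MBD5 and 42 and 44 with Flag-MBD6. Another Eif4b site began in the 3′ untranslated region and had 39 reads with each Flag-MBD5 library and 40 and 44 with Flag-MBD6. Eif4a3, for the helicase of the exon junction complex rather than of initiation, had 1 site, with 22 and 19 against 25 and 13 reads.

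All 3 eIF4G genes, for the scaffold that links the cap to the ribosome, had regions of both proteins. Eif4g1 had 7 MBD5 and 6 MBD6 regions, the most of its group, and its best site had folds of 12.2 and 18.2 with Flag-MBD5 and 26.2 and 22.0 with Flag-MBD6. The best Eif4g2 site had 41 summit reads with each Flag-MBD5 library and 78 and 90 with Flag-MBD6, that is 85.6 and 82.0 against 79.3 and 81.0 reads per 1000000 estimated reads, so that the proteins lay close together there. Eif4g2 codes for a relative of eIF4G that does not bind eIF4E. In Eif4g1 and in Eif4g2, 1 site overlapped a small nucleolar RNA gene.

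Of 8 genes for eIF4E, its binding proteins and its transporter, 2 had an MBD5 region and 3 an MBD6 region, while Eif4e, Eif4e1b, Eif4e3, Eif4ebp1 and Eif4ebp3 had no peak. Eif4e2 codes for the cap-binding protein 4EHP, and its site had 14 and 27 summit reads with Flag-MBD5 and 27 and 48 with Flag-MBD6, so the replicates stood further apart than at most sites. Eif4enif1, for the eIF4E transporter, had 2 MBD5 and 4 MBD6 regions, and Eif4ebp2, for a repressor of eIF4E, had 1 MBD6 region.

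Among the genes for eIF5, eIF5A, eIF5B and eIF6, Eif5b stood out by its counts. It codes for the GTPase that joins the large subunit, and had 4 MBD5 and 7 MBD6 regions. Its best site had 43 and 50 summit reads with Flag-MBD5 and 91 and 100 with Flag-MBD6, or 89.8 and 100 against 92.5 and 89.9 reads per 1000000 estimated reads, so the libraries of the proteins overlapped. Eif5, for the protein that triggers GTP hydrolysis by eIF2, had 4 MBD6 regions and no MBD5 region, and 1 of these overlapped Snora28 with 54 and 50 reads. Eif5a had a peak in the first Flag-MBD6 library, and Eif5a2 and Eif6 had none.

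**Figure D4:**
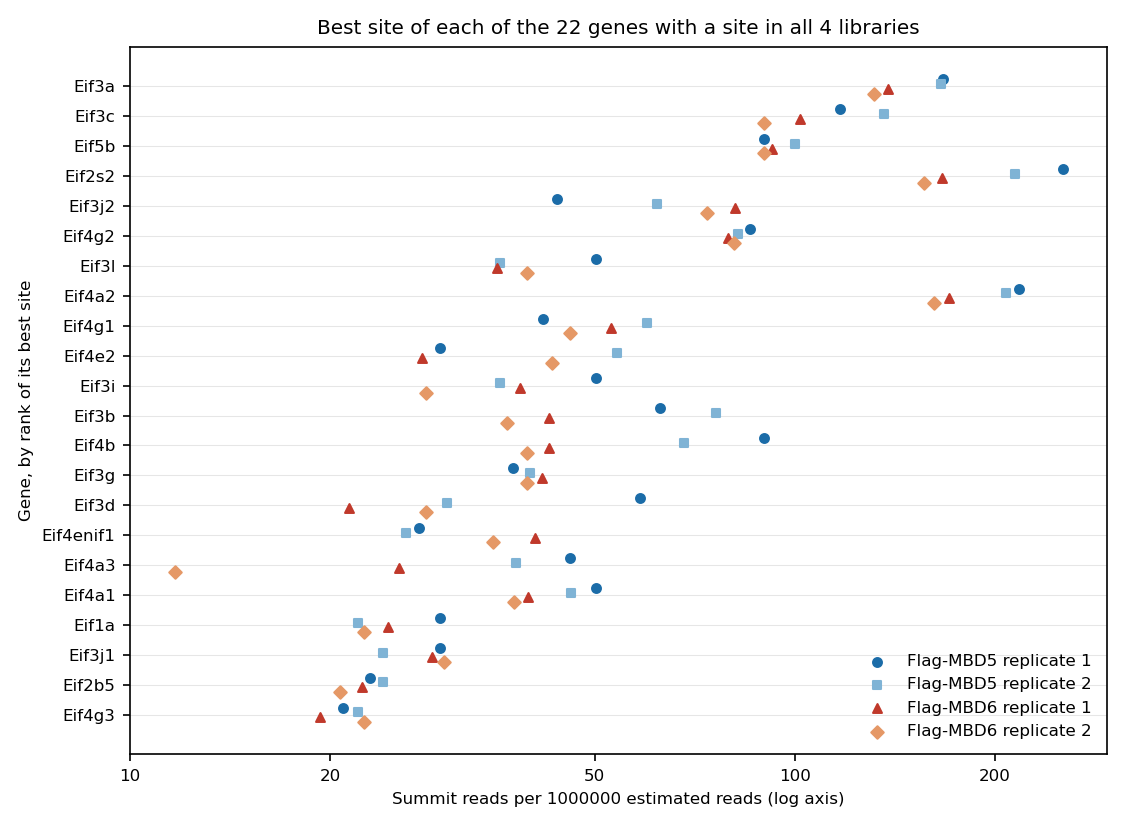
Summit reads per 1000000 estimated reads (log axis) at the best site of each of the 22 Eif genes with a site in all 4 libraries, ordered by rank of fold enrichment over all 3566 sites. Points are single libraries, and the 2 libraries of a protein mostly lie closer to each other than the range across genes, with values from 11.7 to 253.

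The 7 best sites of genes that ranked after the first 15 were those of Eif4enif1, Eif4a3, Eif4a1, Eif1a, Eif3j1, Eif2b5 and Eif4g3. Their folds ran from 8.45 to 16.5 in the first and up to 15.8 in the second Flag-MBD5 library, and from 12.4 to 25.4 and from 8.79 to 23.7 with Flag-MBD6. Over all 62 sites the median number of summit reads was 27.5 and 30 with Flag-MBD5 and 42 and 48.5 with Flag-MBD6.

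Peaks in Eif genes mostly began in coding sequence. At 15 nt from the 5′ end, 142 of 169 Flag-MBD5 peaks (84.0%, 95% Wilson interval 77.8% to 88.8%) and 188 of 213 Flag-MBD6 peaks (88.3%, 83.2% to 91.9%) lay in coding sequence. The shares over all protein-coding genes were 90.3% and 89.8%, and by library 90.1% and 90.5%, and 89.8% and 89.7%. Without peaks that overlap small RNA genes, an alternative added after seeing the data, the Eif shares were 95.9% and 94.8%, and those of all protein-coding genes 93.8% and 91.9%. At the midpoint of the peak the Eif shares were 50.3% and 55.4%, against 61.8% and 61.3% over all protein-coding genes. Reads were extended to 150 nt along the genome and so ran from exons into introns. Along the coding sequence, 17 of 54 sites began in the first part when it was cut into 3 equal parts, 26 in the middle and 11 in the last, against 36.8%, 33.4% and 29.8% of all sites. The middle held 48.1% of the Eif sites. Sites began within 10 nt of the start of an exon in 16 of 56 cases (28.6%), against 20.2% of all sites.

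Regions of the proteins coincided in most cases. Of the 71 MBD5 regions in Eif genes, 64 (90.1%, Wilson 95% interval 81.0% to 95.1%) met an MBD6 region, and over all genes the interval was 89.1% to 90.9%. Of the 91 MBD6 regions, 61 (67.0%, 56.9% to 75.8%) met an MBD5 region, against 47.7% of all MBD6 regions. With equal numbers of peaks from each library the Eif shares were 81.7% of MBD5 and 80.9% of MBD6 regions, and the shares over all genes 75.6% and 66.4%. Of the rest, 4 MBD5 regions had no Flag-MBD6 peak at all, which is 5.63% of the 71, against 3.83% over all genes. They lay in Eif2ak3, Eif3b (2 regions) and Eif3l, and their summit reads were at most 14. There were 20 MBD6 regions with no Flag-MBD5 peak, which is 22.0%, against 33.3% over all genes. Their median was 15.8 summit reads, against 40.5 for the shared ones. The highest count was 54, at an Eif5 region where depth alone would give 24.3 reads with Flag-MBD5. Whether depth or protein was behind a missing peak was not tested.

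The ratio of Flag-MBD6 to Flag-MBD5 was taken as the summit reads of both libraries per estimated read, at the 62 Eif sites in all 4 libraries. Its median was −0.36 on the log2 scale, against −0.34 over all 3566 sites. With summit reads 55 Eif sites (88.7%) were lower and 7 higher for Flag-MBD6, and 72.7% of all sites were lower. This order flipped to 42 higher and 20 lower when the deposited fold enrichment was used instead. Of all 3566 sites, 2695 were higher and 871 lower with fold enrichment. The median of all sites was then 0.41, on a scale that does not correct for depth. Relative to the median of all sites, the median of the Eif sites was −0.02 with summit reads and 0.00 with fold enrichment, and 48 of the 62 sites lay on the same side of it on both scales. The median of the Eif sites therefore lay near that of all sites, although a larger share was lower for Flag-MBD6 with summit reads. Single sites are described relative to the median of all sites.

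No Eif site was over 2-fold higher for Flag-MBD6, against 0.869% of all sites, and 4 were over 2-fold higher for Flag-MBD5, against 9.93%. With fold enrichment these counts turned to 3 for Flag-MBD6, against 14.7% of all sites, and 0 for Flag-MBD5, against 0.813%. Relative to the median of all sites the counts with summit reads were 0 for Flag-MBD6, against 3.67%, and 2 for Flag-MBD5, against 2.16%, both of them Eif3d sites. With fold enrichment they were 1, against 3.62%, and 2, against 4.49%, and the latter were the Eif3d site of exon 7 and an Eif4g2 site over a small nucleolar RNA gene. The exon 7 site had 23 and 22 summit reads with Flag-MBD5 and 16 and 16 with Flag-MBD6, a ratio of 0.332 (exact binomial 95% interval 0.204 to 0.534). The neighbouring exon 6 site had 13 and 17 against 11 and 13, a ratio of 0.374 (0.209 to 0.661). Flag-MBD5 had more reads at the exon 7 site in each library despite its lower depth, and the Eif3d sites lay below the median of all sites on both scales.

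The next lowest ratios were 0.433 (0.271 to 0.690) in Eif4a3, 0.467 (0.261 to 0.837) at an Eif3c site in coding exon 9 with 12 and 14 reads for each protein, and 0.503 (0.365 to 0.694) at the Eif4b site in the 3′ untranslated region. At the other end, Eif3j2 had a ratio of 1.46 (1.06 to 2.03), the single Eif site whose interval lay above 1 with summit reads, and Eif4enif1 had a ratio of 1.42 (0.901 to 2.30), with 13 reads with each Flag-MBD5 library and 40 and 39 with Flag-MBD6. The intervals of 3 sites lay above the median of all sites, those of Eif3j2, Eif4enif1 and Eif3a exon 16, and those of 12 sites lay below it. The same counts were not taken over all sites. Next in order of ratio came Eif3j1 at 1.10 (0.682 to 1.81), an Eif3c site in coding exon 5 at 1.08 (0.719 to 1.66) and Eif3g at 1.04 (0.705 to 1.57). With fold enrichment the highest and the lowest value were both at Eif4g2 sites, at 1.03 and −1.21 on the log2 scale relative to the median of all sites, and Eif3j2 and Eif4enif1 stood at 0.89 and 0.92. These sites were chosen for their ratios, so the values are a description.

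**Figure D5:**
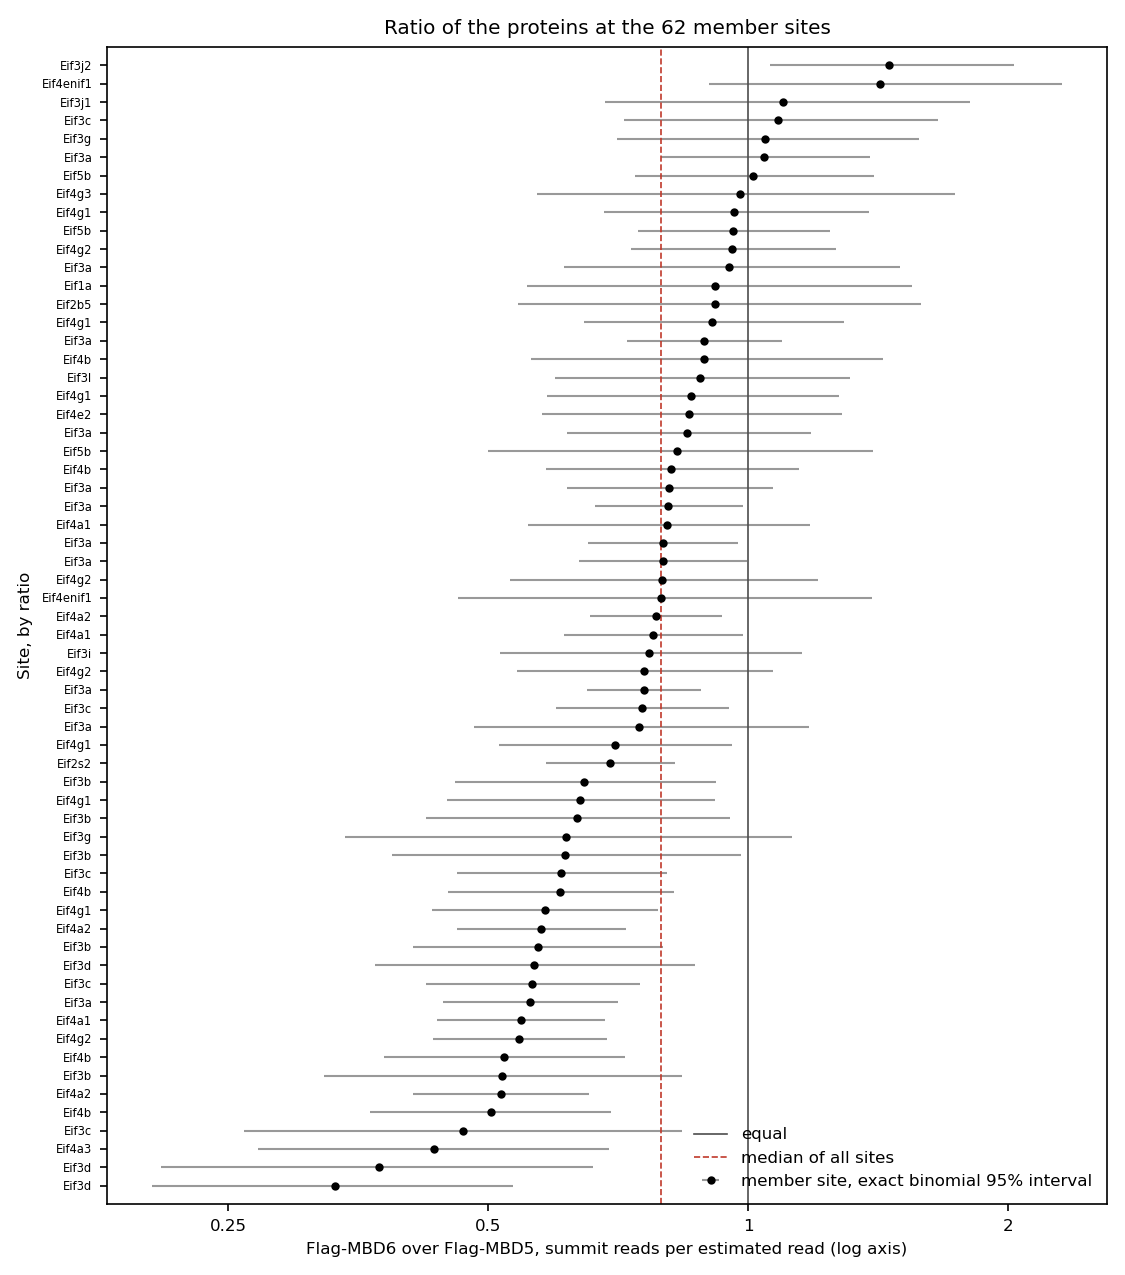
Ratio of Flag-MBD6 to Flag-MBD5 summit reads per estimated read (log axis) at each of the 62 Eif sites in all 4 libraries, with exact binomial 95% intervals that cover counting error. The dashed line is the median of all sites at 0.792. On this scale of summit reads 31 intervals (50%) lie wholly below 1, against 33.7% of all sites. The interval of Eif3j2 (1.61%) lies above 1, against 4.85% of all sites.

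Within Eif3a the 11 ratios had a median of −0.31 on the log2 scale and ran from −0.84 in exon 19 to 0.06 in exon 16. At the exon 19 site the Flag-MBD5 libraries had 66 and 71 summit reads and the Flag-MBD6 libraries 76 and 88, and at the exon 16 site 38 and 39 against 81 and 91. The 8 sites over small RNA genes had a median of −0.58 and the other 54 a median of −0.33. At the Eif4a2 site over Snord2 the Flag-MBD5 libraries had 69 and 72 summit reads and the Flag-MBD6 libraries 76 and 80. Given the difference in depth these are not close, with a ratio of 0.517 (0.409 to 0.654), below the median of all sites. With fold enrichment the site lay above that median, by 0.19 on the log2 scale.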

How the data were processed

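CLIP-seq peak lists of 4 libraries, 2 per protein, were analysed. Per the study's methods, the authors merged duplicate reads, discarded those from ribosomal RNA and mapped what remained to mm10 with Bowtie 1.0.0 (up to 3 mismatches and 10 places), split them by strand with SAMtools 1.16.1 and called peaks with MACS2, with reads extended to 150 bp, up to 5 duplicates kept and a q threshold of 0.01. The deposited score is −log10 q multiplied by 10, rounded down. The deposited fold column is the ratio of summit pileup to background, each with the same small count added. The authors also deposited −log10 of p and of q from MACS2. The inputs were not used here.

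Summit reads and the background rate were solved for each peak from its fold and −log10 p (100% solved in each library). The commonest rate, with a genome size of 130000000 bp, gave the estimated reads. Peaks were joined on the same strand where they shared at least 1 bp, and a site in all 4 libraries had a peak in each. Eif sites of a gene were ranked by the mean rank of fold enrichment over the libraries. Classes and sequences came from GENCODE M21 transcripts, and the main transcript of a gene was the complete one of best APPRIS rank. Python 3.11.15, numpy 2.4.6, pandas 2.3.3 and scipy 1.17.1 were used, and the computations were tested on simulated data.

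Named in the text are, by rule, every Eif gene, the best site of the 15 best genes with a site in all 4 libraries, the 5 sites with the highest and the lowest ratio, and the gene with most regions per group. The Eif genes, the gene lists and these rules were chosen with earlier results of these data known. Alternatives were 11 planned and 2 added ones. Sequences from chromosome 18 are not reported here.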

Additional observations from a re-analysis of the deposited data

How the results depend on the processing

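Of 70 values recomputed under the alternatives other than leaving out a library, 61 stayed within their limits (1.5 times for a count, the 95% Wilson interval for a share, 1 SD of the library pairs for the log2 ratio). With equal numbers of peaks, 22 genes had an MBD5 and 24 an MBD6 region, 71 and 68 regions in all, and 80.9% of the MBD6 regions in Eif genes overlapped an MBD5 region. Classed at the midpoint, 50.3% of Flag-MBD5 and 55.4% of Flag-MBD6 peaks in Eif genes lay in coding sequence. The shares over all protein-coding genes were 61.8% and 61.3%. Reads were extended along the genome, so a midpoint can lie past its exon. Without peaks over small RNA genes, 95.9% and 94.8% of the Eif peaks began in coding sequence. The median log2 ratio was −0.38 with a reciprocal overlap of 50%, −0.33 without sites over small RNA genes, −0.40 without Eif3a and 0.41, a reversed sign, with fold enrichment in place of summit reads. The setting without small RNA genes and the one without Eif3a were chosen after seeing the data. Fold enrichment sets each summit against its background and not against depth, with the same small count added to summit and background. All sites moved with the Eif sites.

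With the replicate number as a block the median log2 ratio was −0.36, and the numbers are not known to pair the samples. Leaving out each library in turn gave 22 to 27 genes with an MBD5 region and 31 to 34 with an MBD6 region, 71 to 85 and 91 to 107 regions, overlaps of 81.2% to 93.0% and 58.5% to 73.6%, coding shares of 83.5% to 84.5% and 87.7% to 88.8%, and median log2 ratios of −0.40 to −0.35. A protein with 1 library left had all its peaks counted as regions. Flag-MBD5 had the lower depth, and whether this limited the regions found for MBD5 was not tested. At sites with about 10 summit reads the ratio spans a wide interval.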
